A study of Mus musculus with 12 samples.

Results

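The methionine cycle was followed through 9 genes in epithelial cells of the mouse kidney tubule. The genes were Mat2a, Mat2b, Ahcy, Ahcyl1, Ahcyl2, Mtr, Mtrr, Cbs and Mtap, found by matching their symbols to the mouse Ensembl identifiers of the deposited count table. They were 9 of 55487 gene entries, and 8 of them were among the 12897 genes with enough reads to be tested. Cbs fell below that filter. The 12 libraries formed 4 groups of 3. Cells carrying an Nnmt expression construct were given transforming growth factor β (TGFβ) at 10 ng/mL for 48 h or left without it, and cells carrying a mock construct were handled in the same pair of ways. All 4 groups went through puromycin selection. All 4 also came from conditionally immortalised cells with an SV40 large T antigen, which were kept at 33 °C in medium holding interferon γ (10 ng/mL) and then spent 7 days at 37 °C with none. Nnmt encodes nicotinamide N-methyltransferase, an enzyme that spends S-adenosylmethionine to methylate nicotinamide. The labels name neither the promoter of the construct nor the number of clones.

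S-adenosylmethionine (SAM) is the methyl donor for most methylation in the cell, and methionine adenosyltransferase makes it from methionine and ATP. Each methyl transfer leaves S-adenosylhomocysteine, an inhibitor of many methyltransferases, which adenosylhomocysteinase splits into adenosine and homocysteine. Homocysteine is then either methylated back to methionine or passed on towards cysteine, while the methylthioadenosine left by polyamine synthesis is salvaged to methionine by a separate route.

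Mat2a, the catalytic subunit of the form of methionine adenosyltransferase used outside the liver, carries its own SAM sensor in its messenger RNA. In human cells and mouse embryos, the methyltransferase METTL16 is known to act on short hairpins in the part of this RNA that follows the coding region, and this is part of a feedback loop by which scarce SAM raises MAT2A. The loop motif was looked for as TACAGAGA or TACAGAAA in the 1494 bases after the stop codon of the mouse Mat2a transcript (GENCODE M21, GRCm38, chromosome 6). It was found 6 times in sense, as 5 copies of TACAGAGA and 1 of TACAGAAA, and 0 times on the opposite strand. The sites are shown because they are the stretch of the pathway where SAM supply and messenger RNA are known to meet, and each is named by how many bases after the stop codon its motif begins, with the motif in capitals.
Mat2a site at base 40: gtaggtTACAGAGAagcctt
Mat2a site at base 824: gtgataTACAGAGAagtcac
Mat2a site at base 1003: tgtagcTACAGAGAaaccag
Mat2a site at base 1118: cgtaagTACAGAGAagccat
Mat2a site at base 1229: gtgtccTACAGAAAaacctt
Mat2a site at base 1337: gtgtggTACAGAGAagccag
Of 16939 genes with a coding transcript at least this long, 10.8% held at least 1 copy in their last 1494 bases, and 1 gene, Mat2a itself, held as many as 6 (0.0059%). The motif searched is that of the hairpins known in this same RNA, so the count for Mat2a is not an independent result. A match of letters is a description and not a measured site. Because the tags come from the 3' end, spliced Mat2a and the form that keeps its last intron could not be told apart.

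Ahcy needed a second look at sequence, because its messenger RNA has near copies elsewhere in the mouse genome. Gm4737 on chromosome 16 matched Ahcy (chromosome 2) at 99.7% over 2083 bases, with 6 mismatches, and is annotated as a coding gene. Gm9826 on chromosome 1, annotated as a processed pseudogene, matched the 1299 coding bases with 11 mismatches. The stretch below, coding bases 1009 to 1068, shows how little separates the 3, with the letters that differ from Ahcy in capitals.
Ahcy: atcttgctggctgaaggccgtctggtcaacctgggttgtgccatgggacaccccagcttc
Gm4737: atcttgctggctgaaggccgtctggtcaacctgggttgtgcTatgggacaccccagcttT
Gm9826: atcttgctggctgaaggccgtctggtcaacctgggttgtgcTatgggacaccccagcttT
Of the 50-base windows of the Ahcy transcript, 77% were also found in the transcript of another gene, against 7.95% for Mat2a, 1.36% for Cbs and 0% for the other 6 members. In the last 500 bases of the annotated transcript, nearest the 3' end from which tags are taken, the share was 7.1% for Ahcy. It was 7.1% for Cbs as well and 0% for Mat2a. The Ahcy transcript used has 2543 bases, and its match with Gm4737 runs from base 42 to base 2124. Tags of an Ahcy RNA that ends nearer to base 2124 would share more. Where Ahcy RNAs end in these cells was not tested. Gm4737 was given 59 reads in all, between 0 and 10 in a library, and Gm9826 was given 0. Reads that match both Ahcy and a copy could not be told apart, so Ahcy counts are uncertain to that extent.

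**Figure D1:**
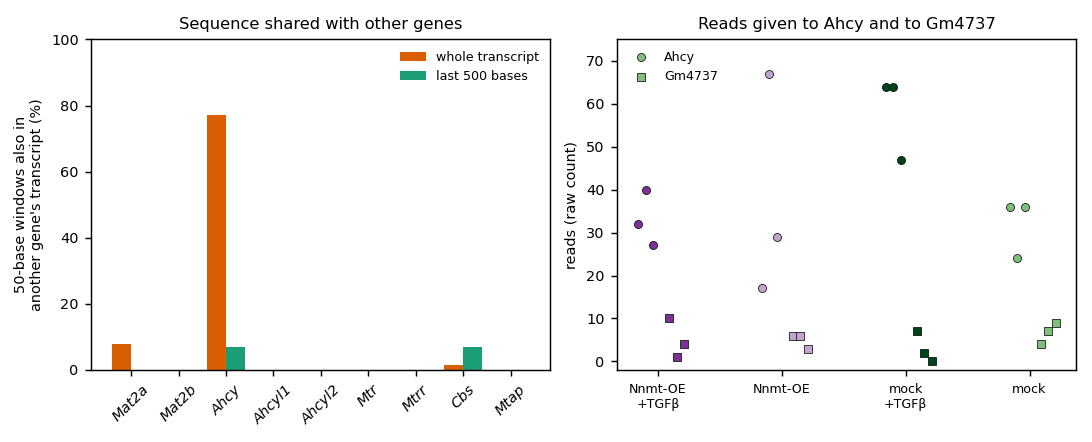
Left, the share of 50-base transcript windows (percent) that also occur in another gene's transcript, for the whole transcript and for its last 500 bases, in each of the 9 genes. Right, raw reads given to Ahcy (circles) and Gm4737 (squares) in every library of the 4 groups; Ahcy stands alone at 77% on the left, and its highest library holds 67 reads on the right.

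Reads in genes ranged from 4733846 to 7247413 in a library. The labels do not say that replicates were separate cultures, so p-values measure only how these samples vary, and that variation may be technical. Nnmt, the check of the labels, stood at 33.9, 22.5 and 26.3 CPM (reads scaled to library size with edgeR's TMM factors) in labelled Nnmt-OE cells with TGFβ and at 24.5, 28.5 and 22.9 CPM without it. It stood at 33.3, 29.7 and 27.9 CPM in mock cells with TGFβ and at 24.7, 17.8 and 18.3 CPM without it. Labelled Nnmt-OE and mock overlapped with and without TGFβ, and the log2 fold change of labelled Nnmt-OE over mock was 0.32 (95% interval -0.12 to 0.76) without TGFβ and -0.14 (-0.56 to 0.29) with it. The mock groups did not overlap, with a log2 fold change for TGFβ of 0.58 (0.15 to 1.01, edgeR adjusted p = 0.206). How the construct ends at its 3' side is not described, so its tags may not be counted, and every direction for the construct rests on the label, which 1 field spells Nmt-OE. Library codes of construct and mock groups do not interleave, nor do those of TGFβ and untreated groups within each construct, so handling cannot be told apart from the construct, or from TGFβ within a construct. Across both constructs the blocks of untreated and TGFβ codes alternate. Mock replicate 1, mock with TGFβ replicate 3 and labelled Nnmt-OE with TGFβ replicate 3 stood apart on the leading principal components. The tubular markers Epcam and Cdh1 were at 0 in all 12 libraries, while the 8 tubular epithelium markers summed to between 718 and 866 CPM. Proximal tubule markers summed to 813 to 863 CPM with TGFβ against 1250 to 1260 CPM without it in labelled Nnmt-OE cells, and to 720 to 799 against 943 to 1190 CPM in mock cells. Most of that sum was Aqp1, a water channel, which averaged 712 CPM with TGFβ against 1120 CPM without it in labelled Nnmt-OE cells and 643 against 935 CPM in mock cells. Of the 3 tested proximal tubule markers, 1 passed as lower with TGFβ averaged over the construct. Another had a positive log2 fold change of 0.19. In labelled Nnmt-OE cells 1 of the 3 was positive, at 0.91, and in mock cells 0 were. Slc22a6 was at 0 in all 12 libraries. Within the tubular list, Cdh16 fell (log2 -0.63, edgeR adjusted p = 9.94e-06) and Krt8 rose (log2 0.38, edgeR adjusted p = 0.00766) with TGFβ averaged over the construct. Fibroblast markers summed to 10.7 to 16.1 CPM against 1.61 to 8.04 CPM in labelled Nnmt-OE cells and to 7.95 to 13.7 against 3.38 to 6.54 CPM in mock cells, with Lum at 0. Endothelial markers reached 0.165 CPM at most, with Pecam1, Cdh5, Kdr and Tek at 0. Leukocyte markers summed to 55.2 to 96.3 CPM (Adgre1, Cd3e and Itgam at 0) and podocyte markers to 203 to 244 CPM. In bulk libraries, fewer cells of a type and less RNA per cell cannot be told apart.

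The 8 tested genes spanned a wide range of levels. With about 1 tag per transcript, CPM compares genes without a correction for length, though not for how well each 3' end is captured. Over the 12 libraries the mean level was 338 CPM for Ahcyl1, 266 for Mat2a, 137 for Mtap, 54.1 for Mat2b, 47.5 for Mtr, 33.6 for Ahcyl2, 14 for Mtrr and 6.62 for Ahcy. Of all tested genes, 96.9% had a lower mean level than Ahcyl1 and 22.7% had a lower one than Ahcy. Neighbours in that order overlapped in their library ranges for Ahcyl1 (305 to 357 CPM) and Mat2a (226 to 325 CPM), for Mat2b (46.7 to 64 CPM) and Mtr (38.7 to 70.9 CPM), for Mtr and Ahcyl2 (25 to 40.9 CPM), and for Mtrr (8.31 to 18.8 CPM) and Ahcy (3.04 to 9.83 CPM). The ranges of Mat2a and Mtap, of Mtap and Mat2b, and of Ahcyl2 and Mtrr did not overlap. The catalytically inactive relative Ahcyl1 thus had many more tags than the hydrolase Ahcy itself, within the limit set by the copies of Ahcy.

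The enzymes of this pathway listed as of liver and kidney type were at or near 0. Mat1a, the adenosyltransferase subunit of liver, and Bhmt and Bhmt2, which methylate homocysteine with betaine or S-methylmethionine, were given 0 reads in all 12 libraries, which allows a level of up to 0.0422 CPM over the pooled libraries. Gnmt, which removes excess SAM by methylating glycine, was given 1 read, in mock cells with TGFβ. These limits cover counting error only.

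**Figure D2:**
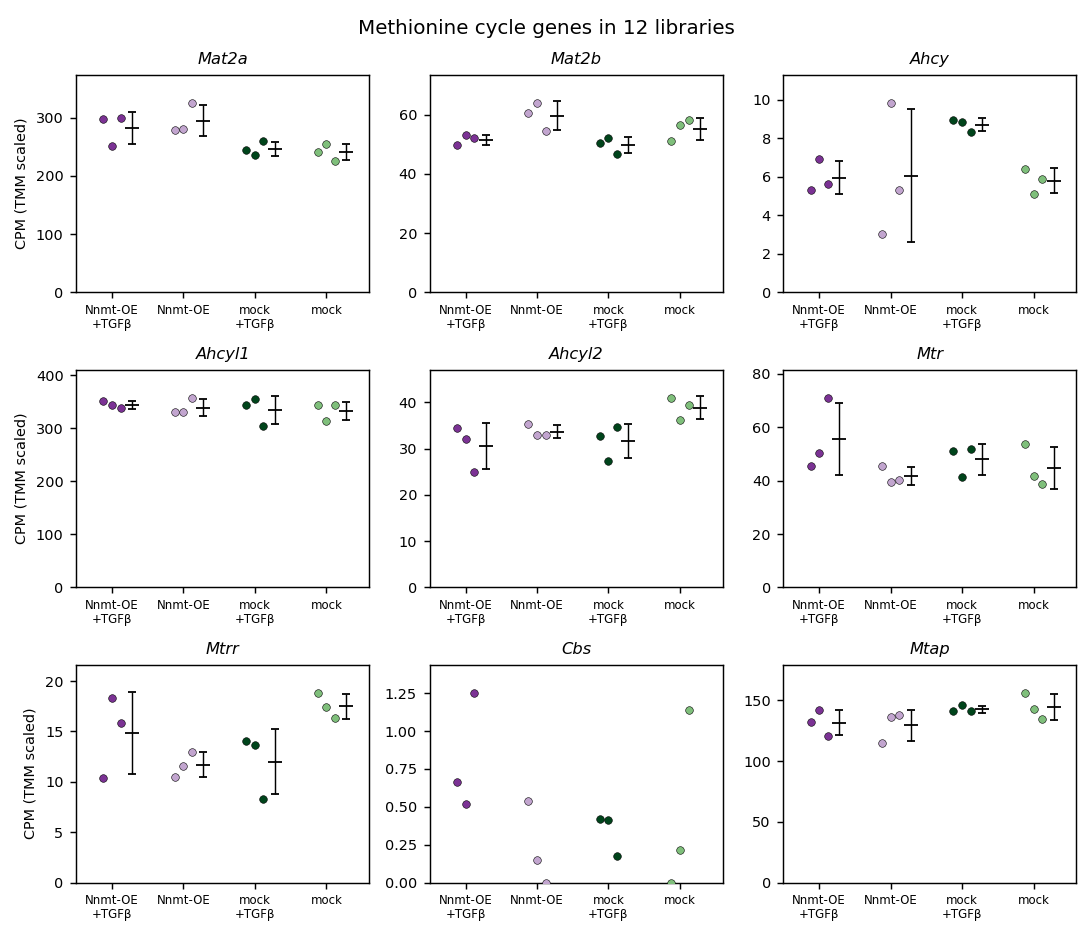
TMM-scaled CPM of the 9 methionine cycle genes in every library of the 4 groups, each panel on its own axis from 0; bars give the mean and SD of 3 libraries and are left out for Cbs, which was not tested. Of the 6 Mat2a points of labelled Nnmt-OE cells, 5 lie above all mock points, and the Ahcy points of Nnmt-OE without TGFβ spread from 3.04 to 9.83 CPM.

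None of the 8 tested genes passed an adjusted p of 0.05 in any comparison (edgeR quasi-likelihood test, Benjamini-Hochberg adjustment over 12897 genes). The share of all tested genes that passed was 0.0388% for labelled Nnmt-OE over mock without TGFβ, 0.0233% for the same with TGFβ and 0.0698% for the construct averaged over TGFβ. For TGFβ it was 1.43% in mock cells, 1.4% in labelled Nnmt-OE cells and 5.08% averaged over the construct. It was 0% for the interaction, the difference between the TGFβ responses of labelled Nnmt-OE and mock cells, where 501 genes (3.88%) had an unadjusted p under 0.05 and DESeq2 and limma-voom called 0 as well. DESeq2 and limma-voom also called 0 of the 8 members in each comparison. The median log2 fold change of the members lay between -0.05 and 0.05 in the 7 comparisons, and that of all tested genes between -0.01 and 0. The account that follows therefore gives values and intervals, and a p above the threshold does not show that the groups were alike.

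**Figure D3:**
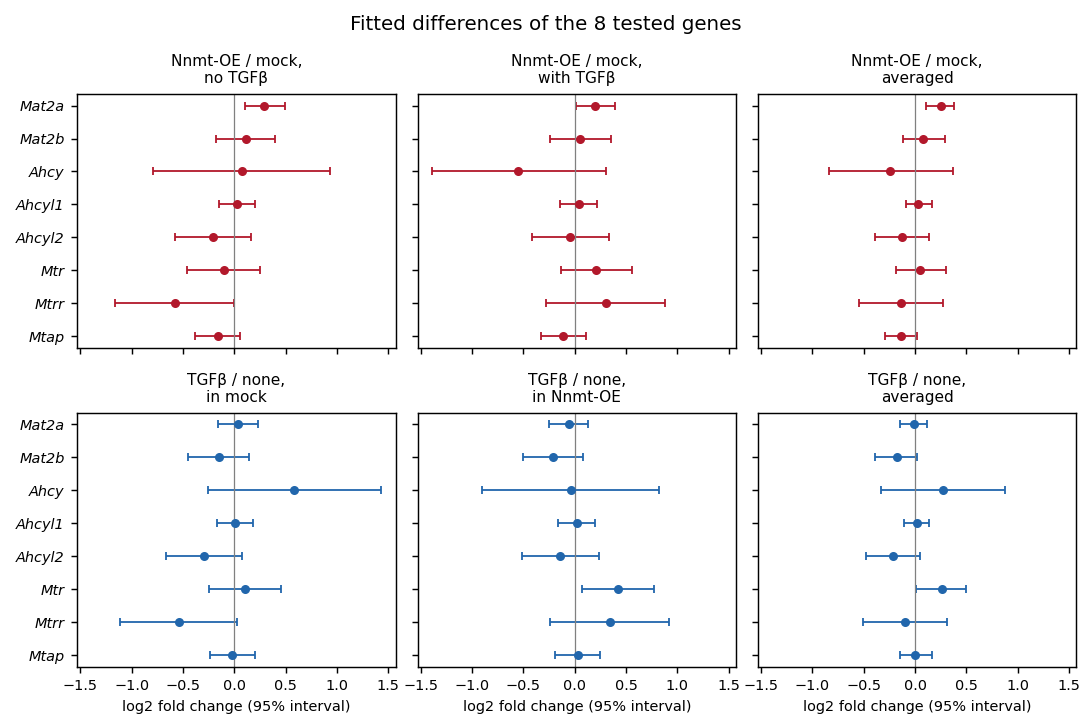
Log2 fold changes of the 8 tested genes with 95% intervals from the edgeR fit, for labelled Nnmt-OE over mock (top) and TGFβ over none (bottom). The intervals of Ahcyl1 are the narrowest and those of Ahcy the widest, and the Mat2a interval lies above 0 in each of the 3 construct panels without passing the adjusted threshold.

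Among the makers of SAM, Mat2a (ENSMUSG00000053907) had the smallest unadjusted p of the members for the construct. It stood at 297, 251 and 300 CPM in labelled Nnmt-OE cells with TGFβ, against 245, 235 and 259 CPM in mock cells with TGFβ. Without TGFβ it stood at 279, 280 and 325 CPM in labelled Nnmt-OE cells, against 241, 254 and 226 CPM in mock cells. Without TGFβ every labelled Nnmt-OE library lay above every mock library, and with TGFβ the groups overlapped through labelled Nnmt-OE replicate 2. The means were 295 ± 26.5 CPM in labelled Nnmt-OE and 240 ± 13.8 CPM in mock (SD, n = 3 each). This was a log2 fold change of 0.29 ± 0.10 SE (95% interval 0.10 to 0.49, edgeR adjusted p = 0.808). Averaged over TGFβ it was 0.25 ± 0.07 SE (0.11 to 0.38, a fold of 1.19, edgeR adjusted p = 0.306), which placed Mat2a at rank 32 of 12897 genes by unadjusted p. The adjusted p of the averaged value lay between 0.135 and 0.759 under all 19 alternatives, and its log2 fold change between 0.21 and 0.29. TGFβ left intervals on both sides of 0, from -0.25 to 0.13 in labelled Nnmt-OE cells and from -0.16 to 0.23 in mock cells. Mettl16, the methyltransferase of the hairpins, stood at 71.6, 79.6 and 75.1 CPM in labelled Nnmt-OE cells with TGFβ and at 72.9, 66.7 and 57.8 CPM without it, against 71.3, 65 and 62.2 CPM in mock cells with TGFβ and 78.9, 70.8 and 76.3 CPM without it. Particl, an annotated gene on the strand opposite Mat2a, overlaps it by 508 exon bases at the start of the Mat2a gene and was given 13 to 29 reads in a library.

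Mat2b (ENSMUSG00000042032), the regulatory subunit that binds the catalytic one, kept a narrower range. It stood at 49.7, 53 and 52.1 CPM in labelled Nnmt-OE cells with TGFβ, against 60.7, 64 and 54.5 CPM without it. Mock cells had 50.4, 52 and 46.7 CPM with TGFβ, against 51.2, 56.4 and 58.3 CPM without it. The labelled Nnmt-OE groups did not overlap and the mock groups did. Averaged over the construct, the log2 fold change for TGFβ was -0.18 (95% interval -0.39 to 0.02, edgeR adjusted p = 0.385), and for the construct averaged over TGFβ it was 0.08 (-0.12 to 0.29, edgeR adjusted p = 0.935). The ratio of Mat2a to Mat2b tags had a median of 5.76 in labelled Nnmt-OE with TGFβ, 4.59 in labelled Nnmt-OE, 4.87 in mock with TGFβ and 4.5 in mock. Its library ranges, 4.73 to 5.98, 4.38 to 5.97, 4.52 to 5.55 and 3.88 to 4.71 in that order, overlapped between labelled Nnmt-OE and mock in both settings.

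Ahcy (ENSMUSG00000027597), the hydrolase of S-adenosylhomocysteine, was the lowest of the tested members and the least precise. It was given 32, 40 and 27 reads in labelled Nnmt-OE cells with TGFβ and 17, 67 and 29 reads without it. Mock cells had 64, 64 and 47 reads with TGFβ and 36, 24 and 36 reads without it. On the CPM scale this was 5.29, 6.92 and 5.63 in labelled Nnmt-OE with TGFβ, against 8.97, 8.83 and 8.31 in mock with TGFβ. These groups did not overlap, and neither did mock with TGFβ and mock without it (6.39, 5.09 and 5.88 CPM). Labelled Nnmt-OE without TGFβ, at 3.04, 9.83 and 5.3 CPM, held both the lowest and the highest value of the series. For the construct with TGFβ the log2 fold change was -0.55 (95% interval -1.39 to 0.30, edgeR adjusted p = 0.998), and for TGFβ in mock cells it was 0.58 (-0.26 to 1.43, edgeR adjusted p = 0.648). With the reads of Gm4737 added, a choice made after the data were seen, these values were -0.42 and 0.38. This sum cannot restore reads that match both genes if such reads were dropped before counting, which is not stated. No difference in Ahcy was detectable at this depth.

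Ahcyl1 (ENSMUSG00000027893), known as IRBIT, is a relative of adenosylhomocysteinase that lacks its activity and binds inositol trisphosphate receptors and ion transporters. It was the steadiest member, at 352, 343 and 338 CPM in labelled Nnmt-OE cells with TGFβ and 330, 330 and 357 CPM without it. In mock cells Ahcyl1 stood at 344, 356 and 305 CPM with TGFβ and at 343, 313 and 343 CPM without it. All 4 groups overlapped. Averaged over the other factor, its fold was 1.02 for the construct (95% interval 0.938 to 1.12, edgeR adjusted p = 0.969) and 1.01 for TGFβ (0.926 to 1.1, edgeR adjusted p = 0.945), the narrowest bounds of the 8 genes.

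Ahcyl2 (ENSMUSG00000029772), the second relative of this kind, stood highest in mock cells without TGFβ. It stood at 34.5, 32 and 25 CPM in labelled Nnmt-OE cells with TGFβ and 35.2, 32.9 and 32.9 CPM without it, against 32.8, 27.4 and 34.6 CPM in mock cells with TGFβ and 40.9, 36.1 and 39.4 CPM without it. The untreated mock libraries lay above all 9 others. Its log2 fold change was -0.21 for labelled Nnmt-OE over mock (95% interval -0.58 to 0.16, edgeR adjusted p = 0.948) and -0.30 for TGFβ in mock cells (-0.67 to 0.07, edgeR adjusted p = 0.576). Ahcyl1 to Ahcyl2 tag ratios had medians of 10.7 in labelled Nnmt-OE with TGFβ, 10 in labelled Nnmt-OE, 10.5 in mock with TGFβ and 8.68 in mock.

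Of the remethylation pair, Mtr (ENSMUSG00000021311) encodes methionine synthase, the cobalamin-dependent enzyme that methylates homocysteine with methyltetrahydrofolate. It stood at 45.6, 50.5 and 70.9 CPM in labelled Nnmt-OE cells with TGFβ, against 45.4, 39.3 and 40.2 CPM without it. Mock cells had 50.9, 41.2 and 51.8 CPM with TGFβ, against 53.8, 41.6 and 38.7 CPM without it. The labelled Nnmt-OE groups lay next to each other without overlap (45.6 and 45.4 CPM at the nearest pair), while the mock groups overlapped. The highest library, replicate 3 of labelled Nnmt-OE with TGFβ, was 1 of the 3 that stood apart. For TGFβ the log2 fold change was 0.42 ± 0.17 SE in labelled Nnmt-OE cells (95% interval 0.07 to 0.77, edgeR adjusted p = 0.311) and 0.10 in mock cells (-0.25 to 0.45, edgeR adjusted p = 0.894). Without that library the value in labelled Nnmt-OE cells was 0.21, and without all 3 it was 0.21 as well. Over all alternatives and members, the lowest adjusted p, 0.115, belonged to Mtr for TGFβ averaged over the construct, without mock replicate 1.

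Mtrr (ENSMUSG00000034617) encodes methionine synthase reductase, which restores the active form of the cobalamin bound to Mtr. It stood at 10.4, 18.3 and 15.8 CPM in labelled Nnmt-OE cells with TGFβ and 10.5, 11.6 and 13 CPM without it, against 14, 13.7 and 8.31 CPM in mock cells with TGFβ and 18.8, 17.4 and 16.3 CPM without it. Untreated mock libraries lay above those of untreated labelled Nnmt-OE and above those of mock with TGFβ. Its log2 fold change was -0.58 ± 0.29 SE for labelled Nnmt-OE over mock without TGFβ (95% interval -1.16 to 0.00, edgeR adjusted p = 0.845) and -0.54 for TGFβ in mock cells (-1.11 to 0.03, edgeR adjusted p = 0.471). The other pair of comparisons had the opposite sign, 0.30 for the construct with TGFβ and 0.34 for TGFβ in labelled Nnmt-OE cells. Single libraries moved these values. The -0.54 was -0.34 without mock with TGFβ replicate 3 and -0.28 without the 3 libraries that stood apart. The 0.30 was 0.10 without that same mock library, 0.11 and 0.50 without labelled Nnmt-OE with TGFβ replicates 2 and 1, and 0.05 without the 3. The 0.34 was 0.16 and 0.55 without the same replicates 2 and 1. The interaction was 0.88 ± 0.40 SE (0.07 to 1.70, edgeR adjusted p = 0.999), and 0.58 without those 3 libraries. It did not pass the test. Mtr to Mtrr tag ratios had medians of 4.38, 3.39, 3.63 and 2.39 in labelled Nnmt-OE with TGFβ, labelled Nnmt-OE, mock with TGFβ and mock. Untreated mock, at 2.37 to 2.86, overlapped neither untreated labelled Nnmt-OE (3.1 to 4.31) nor mock with TGFβ (3.02 to 6.23). Labelled Nnmt-OE with TGFβ, at 2.75 to 4.47, overlapped each of the other groups. How often ratios of other gene pairs fail to overlap was not computed.

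Cbs (ENSMUSG00000024039), cystathionine β-synthase, commits homocysteine to cysteine synthesis and is known to be active in the proximal tubule. It was given 32 reads in all. These were 4, 3 and 6 reads in labelled Nnmt-OE cells with TGFβ, 3, 1 and 0 without it, 3, 3 and 1 in mock cells with TGFβ and 0, 1 and 7 without it. The pooled level was 0.451 CPM, and differences between groups were not tested. Mtap (ENSMUSG00000062937), methylthioadenosine phosphorylase, opens the salvage route from polyamine synthesis back to methionine. It stood at 132, 142 and 121 CPM in labelled Nnmt-OE cells with TGFβ and 115, 136 and 138 CPM without it, against 141, 146 and 141 CPM in mock cells with TGFβ and 156, 143 and 135 CPM without it. The groups overlapped in each of the 4 pairwise comparisons. Averaged over TGFβ the log2 fold change of labelled Nnmt-OE over mock was -0.14 (95% interval -0.29 to 0.02, edgeR adjusted p = 0.821), and averaged over the construct that of TGFβ was 0.00 (-0.15 to 0.16, edgeR adjusted p = 0.993).

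Counted over the 8 tested members, groups did not overlap for 3 genes in labelled Nnmt-OE against mock without TGFβ (Mat2a, Ahcyl2 and Mtrr), where 10.9% of all tested genes did not. With TGFβ it was 1 gene (Ahcy), where 10.2% did not. For TGFβ it was 3 genes in mock cells (Ahcy, Ahcyl2 and Mtrr; 16.4% of all genes) and 2 in labelled Nnmt-OE cells (Mat2b and Mtr; 17.6% of all genes). Unadjusted p-values under 0.05 were found for 2, 1, 0 and 1 members in the same order of comparisons, where 5.84, 4.46, 11.9 and 11.1% of all genes had one. The construct averaged over TGFβ had 1 such member (6.23% of all genes), TGFβ averaged over the construct had 1 (16.6%) and the interaction had 1 (3.88%). These comparisons share groups, and no count was tested.

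The genes that feed and drain the cycle were read from 9 lists of 73 genes, of which 60 were tested. For the construct, 0 of the 60 passed the test without TGFβ, with TGFβ or averaged. For TGFβ averaged over the construct, 1 rose and 4 fell, where 2.48% of all tested genes rose and 2.6% fell, with a median log2 fold change of 0.06 for the 60 and 0 for all. In labelled Nnmt-OE cells alone 0 rose and 3 fell, Inmt and Slc43a2 among them, where 0.651% of all genes rose and 0.744% fell. In mock cells alone 0 rose and 4 fell (Inmt, Slc43a2, Csad and Smox), where 0.667% of all genes rose and 0.76% fell. Inmt, Slc43a2, Csad and Srm are named because they passed for TGFβ averaged over the construct. Smox passed in mock cells (log2 -0.67) and stood at log2 -0.08 in labelled Nnmt-OE cells. The sums of proximal tubule and fibroblast markers given above also differed with TGFβ. Any gene chosen for a TGFβ difference would run with or against those sums, and no correlation with them was computed. The part of those markers in these changes was not tested. The genes that passed were spread over polyamine synthesis, transsulfuration, methionine transport and small-molecule methylation.

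**Figure D4:**
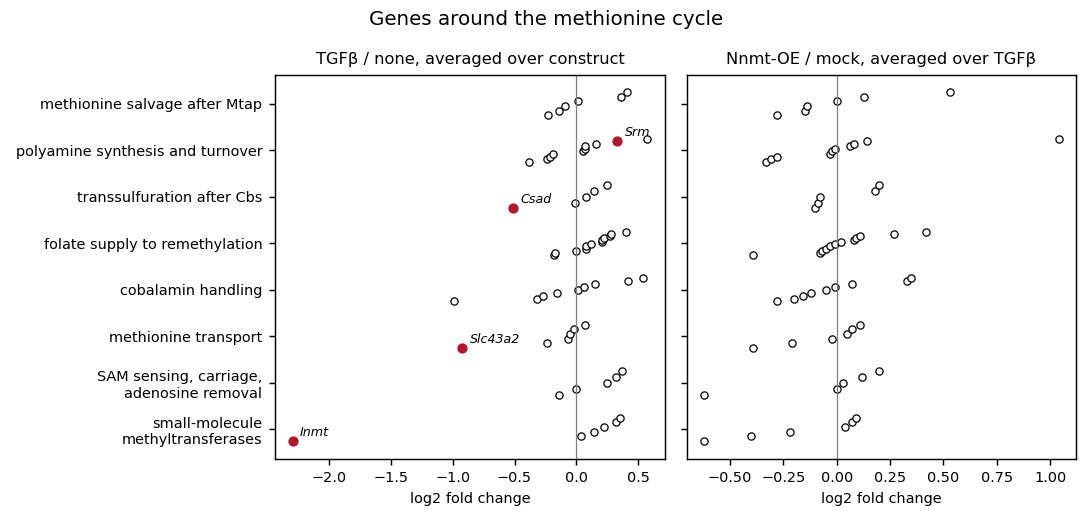
Log2 fold changes of the tested genes reported here in the 8 lists that had tested genes, for TGFβ over none averaged over the construct (left) and labelled Nnmt-OE over mock averaged over TGFβ (right); filled red points passed an adjusted p of 0.05 in edgeR. Inmt lies farthest from 0 on the left at -2.29, and no point on the right is filled.

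Among the small-molecule methyltransferases, 0 of 7 tested genes rose with TGFβ averaged over the construct, and the median log2 fold change was 0.14. Inmt, which spends SAM to methylate indolethylamines and other amines, stood at 5.78, 5.19 and 4.38 CPM with TGFβ against 29.3, 22 and 24.5 CPM without it in labelled Nnmt-OE cells. Mock cells had 6.87, 3.72 and 10.1 CPM with TGFβ against 40.9, 23.1 and 35.3 CPM without it. All 6 treated libraries lay below all 6 untreated ones. Inmt fell to a fold of 0.205 (95% interval 0.152 to 0.276, log2 -2.29 ± 0.21 SE, edgeR adjusted p = 2.66e-10).

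Of 6 tested methionine transporters, 1 fell and 0 rose. Slc43a2, a carrier of methionine and other large neutral amino acids, stood at 25.5, 21.8 and 26.1 CPM with TGFβ against 40.7, 46.9 and 41.2 CPM without it in labelled Nnmt-OE cells. Mock cells had 28.6, 27.9 and 22.1 CPM with TGFβ against 57.2, 51.5 and 52.3 CPM without it. Treated and untreated libraries did not overlap in either. On the log2 scale the fold change was -0.92 ± 0.13 SE averaged over the construct (edgeR adjusted p = 1.9e-06), -0.82 in labelled Nnmt-OE cells (edgeR adjusted p = 0.00765) and -1.03 in mock cells (edgeR adjusted p = 0.000338). In labelled Nnmt-OE cells the call was lost without treated replicate 2 (edgeR adjusted p = 0.0747) or untreated replicate 2 (edgeR adjusted p = 0.0605).

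Of 5 tested genes of transsulfuration after Cbs, 1 fell and 0 rose. Csad, which decarboxylates cysteine sulfinate on the way to taurine, stood at 53.7, 51.9 and 55.9 CPM with TGFβ against 62.4, 66.2 and 76.8 CPM without it in labelled Nnmt-OE cells, and at 54.5, 54.2 and 43.8 against 95.7, 81.9 and 68 CPM in mock cells. Every treated library lay below every untreated one of the same construct. Averaged over the construct the log2 fold change was -0.51 ± 0.10 SE (edgeR adjusted p = 0.00112). In labelled Nnmt-OE cells alone it was -0.35, which did not pass the test (edgeR adjusted p = 0.328). In mock cells it was -0.68 (edgeR adjusted p = 0.00616), and without the 3 libraries that stood apart it was -0.46 (edgeR adjusted p = 0.183), or -0.55 without mock replicate 1 alone (edgeR adjusted p = 0.0758).

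Of 10 tested polyamine genes, 1 rose and 0 fell averaged over the construct. Srm, spermidine synthase, whose by-product is the substrate of Mtap, stood at 85, 82.2 and 74.4 CPM with TGFβ against 72.7, 61.8 and 58.3 CPM without it in labelled Nnmt-OE cells, and at 88.8, 74.6 and 79.7 against 65.5, 66.2 and 61.4 CPM in mock cells. All 6 treated libraries lay above all 6 untreated ones. Srm had a log2 fold change of 0.33 ± 0.09 SE averaged over the construct (edgeR adjusted p = 0.0275), and 0.33 in each construct alone (edgeR adjusted p = 0.291 in labelled Nnmt-OE and 0.261 in mock). The averaged call was lost in 6 of 12 fits that each left out 1 library (highest edgeR adjusted p = 0.101, without mock with TGFβ replicate 1). Smox, spermine oxidase, stood at 27.9, 32.7 and 29.9 CPM with TGFβ against 47.1, 47.9 and 49 CPM without it in mock cells, where it fell by 0.67 on the log2 scale (SE 0.18, edgeR adjusted p = 0.0433). Labelled Nnmt-OE cells had 40.8, 38.4 and 29.6 CPM with TGFβ against 31.6, 45.5 and 38.2 CPM without it (log2 -0.08, edgeR adjusted p = 0.924), and the difference between the constructs did not pass the test (interaction 0.59 on the log2 scale, 95% interval 0.08 to 1.1, edgeR adjusted p = 0.999). The call in mock cells was lost without the 3 libraries that stood apart (log2 -0.68, edgeR adjusted p = 0.0862) and in 9 of 12 fits that each left out 1 library (highest edgeR adjusted p = 0.191, without mock with TGFβ replicate 1).

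In the other lists with tested genes, 0 genes passed. In folate supply to remethylation, 10 of 12 tested genes had a positive log2 fold change for TGFβ averaged over the construct, with a median of 0.16. Of all 12897 tested genes, 6345 had a positive value and the median was 0. The count of signs in the folate list was not tested. The smallest p-values there belonged to the mitochondrial enzymes Shmt2 (log2 0.28, edgeR adjusted p = 0.0537) and Mthfd1l (log2 0.40, edgeR adjusted p = 0.0989). Shmt2 stood at 112, 114 and 116 CPM with TGFβ against 94.7, 92.6 and 90.9 CPM without it in labelled Nnmt-OE cells, and at 104, 123 and 121 against 117, 94 and 81.5 CPM in mock cells, so that only the labelled Nnmt-OE groups did not overlap. Of 6 tested salvage genes after Mtap, the lowest p-values belonged to Enoph1 (log2 0.36, edgeR adjusted p = 0.404) and Kyat3 (log2 0.41, edgeR adjusted p = 0.44). Of 9 cobalamin genes they belonged to Mmab (log2 -0.32, edgeR adjusted p = 0.242) and the transport protein gene Tcn2 (log2 -0.99, edgeR adjusted p = 0.273). Of 5 genes of SAM sensing, carriage and adenosine removal they belonged to adenosine kinase, Adk (log2 0.25, edgeR adjusted p = 0.225), and Bmt2, which encodes the SAM sensor SAMTOR (log2 -0.14, edgeR adjusted p = 0.455).

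**Figure D5:**
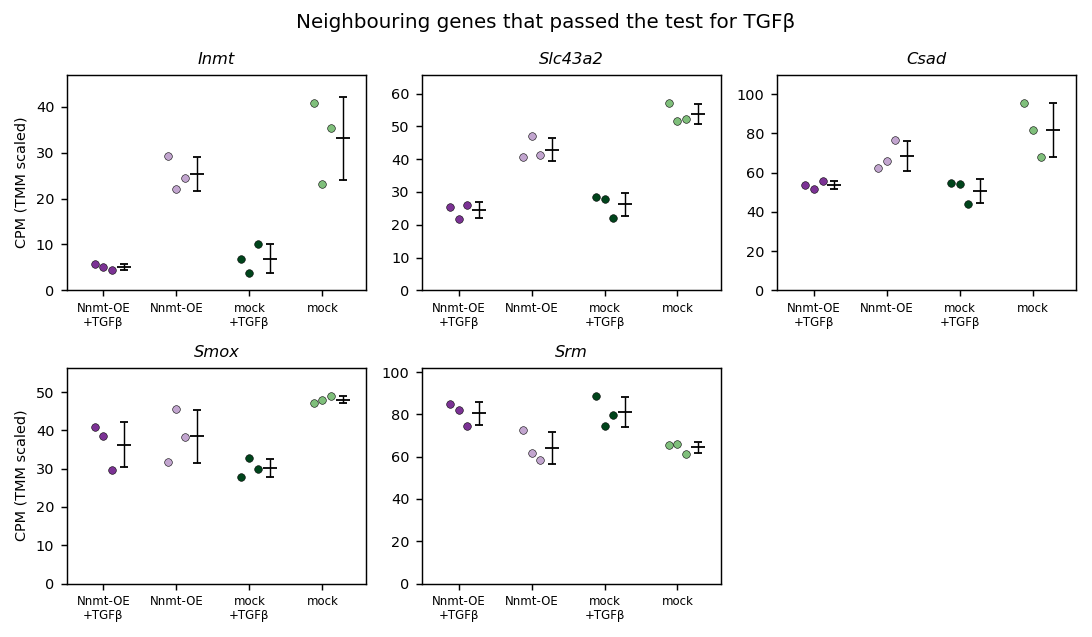
TMM-scaled CPM in every library of the 4 groups for 5 neighbouring genes that passed the test for TGFβ in at least 1 comparison, with mean and SD of 3 libraries; each axis starts at 0. Inmt and Slc43a2 lie lower in both TGFβ groups, Srm lies higher, and Smox lies at 27.9 to 32.7 CPM in mock with TGFβ and at 47.1 to 49 CPM in mock.

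The genes whose levels ran most like those of Mat2a over the 12 libraries were 5430427N15Rik (Pearson r = 0.86 of log2(CPM + 0.5)), Snrpb (0.859), a core protein of the splicing machinery, and 1810062O18Rik (0.844). For Ahcy they were Brix1 (0.886), Cyp51 (0.879) and Timm13 (0.876). These are the 3 highest values for each gene, given as a description without a test, and the libraries share their depth and their groups.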

How the data were processed

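RNA was measured in 12 libraries made from 100 ng of total RNA with QuantSeq forward 3' tags, per the labels' protocols. The deposited table holds raw counts of reads per gene. STAR, HTSeq and the human build GRCh38 are named in the submitters' processing notes, with versions not given. The identifiers are mouse Ensembl ones, and the mouse build, strand setting, read length and handling of multiply aligned reads are not given in these sources, so no genome coordinates are printed. HTSeq's totals for reads outside single genes were not used. Symbols came from GENCODE M21 and matched 55141 of 55487 identifiers. Sequences came from the GENCODE M21 transcripts.

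Groups followed the sample titles. All libraries entered 1 fit in edgeR 4.0.16 (R 4.3.3) with a mean per group, filterByExpr (minimum count 10, minimum total 15), TMM scaling and the robust quasi-likelihood F test, with Benjamini-Hochberg adjustment over 12897 genes at 0.05. The script was tested on simulated data. The deposited counts allow no correction for duplicate reads, since no molecular identifiers are stated. A level of 3 reads over all libraries equals 0.0422 CPM, and intervals are at 95%. Alternatives were RLE scaling, no filter, a stricter filter, DESeq2 1.42.0, limma-voom (limma 3.58.1), a replicate block, only the groups compared, each library left out, the 3 libraries that stand apart left out, and, added after seeing the data, Ahcy summed with Gm4737. The members and lists were chosen with earlier results of these data known. Besides the members and Nnmt, the text names list genes past the threshold in any contrast, otherwise the 2 with the smallest p for TGFβ averaged over the construct, and the 3 genes most correlated with Mat2a and with Ahcy. Mettl16, Particl and the Ahcy copies were named outside that rule, as parts of the sequences shown. A gene that the rule covers is not reported here.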

Additional observations from a re-analysis of the deposited data

How the results depend on the processing

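Members called stayed at 0 in each of the 137 pairings of an alternative with a comparison. In 1102 alternative fits of a member, counted over all comparisons, the lowest adjusted p was 0.115. Signs changed in 44 of these fits, to a size of at most 0.52 for Ahcy and 0.14 for the others. Ahcy for labelled Nnmt-OE over mock was -0.04 in limma-voom and -0.02 summed with Gm4737, and for TGFβ in labelled Nnmt-OE it was 0.06 in limma-voom. Without the 3 libraries that stand apart, log2 values were 0.05 for Mtr without TGFβ, -0.01 for Ahcyl1 and 0.14 for Ahcyl2 with TGFβ (labelled Nnmt-OE over mock), 0.05 for Mtap (TGFβ in mock), 0.04 for Smox (TGFβ in labelled Nnmt-OE), -0.05 for Ahcyl1 (interaction) and 0.01 for Mtrr (TGFβ averaged).

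Leaving out 1 library at a time gave log2 values for labelled Nnmt-OE over mock of -0.48 to 0.39 for Ahcy, -0.02 to 0.05 for Ahcyl1 and -0.20 to 0.05 for Mtr without TGFβ, -0.03 to 0.08 for Ahcyl1 and -0.15 to 0.08 for Ahcyl2 with it, and -0.05 to 0.13 for Mtr averaged. For TGFβ in mock cells they were -0.04 to 0.07 for Ahcyl1 and -0.07 to 0.04 for Mtap. For TGFβ in labelled Nnmt-OE cells they were -0.10 to 0.02 for Mat2a, -0.35 to 0.52 for Ahcy, -0.05 to 0.09 for Mtap, -0.05 to 0.25 for Nnmt and -0.20 to 0.06 for Smox. For TGFβ averaged they were -0.03 to 0.03 for Mat2a, -0.01 to 0.05 for Ahcyl1 and -0.19 to 0.01 for Mtrr, and for the interaction -0.05 to 0.06 for Ahcyl1 and -0.03 to 0.11 for Mtap. The cause of these sign changes was not tested.

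The labels do not say whether replicate numbers pair the samples. Deviations of same-numbered libraries correlated between -0.11 and 0.05, which cannot show how the samples were prepared. With a replicate block, Ahcy was -0.01 for labelled Nnmt-OE over mock and 0.01 for TGFβ in labelled Nnmt-OE cells, 0 members were called, and no other sign of a member changed.

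Among neighbours, Smox in mock cells was also lost with only the groups compared (edgeR adjusted p = 0.0773). Smox averaged over the construct passed in DESeq2 (adjusted p = 0.0484) and without labelled Nnmt-OE replicate 1 (edgeR adjusted p = 0.0498).

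Counts of all genes called moved by over 1.5 times for labelled Nnmt-OE over mock (5; 13 without a filter, 3 with only the groups compared, 3 to 6 leaving out 1 library) and with TGFβ (3; 1 to 3). For TGFβ in labelled Nnmt-OE cells they were 180, with 295 in DESeq2, 351 with only the groups compared and 97 to 305 leaving out 1 library. For TGFβ in mock cells they were 184, with 306 in DESeq2, 92 with only the groups compared and 98 to 188 leaving out 1 library. For the construct averaged they were 9, with 19 without a filter, 26 in DESeq2 and 5 to 9 leaving out 1 library. Read depth limits Ahcy, Mtrr and Cbs most, and a low count there cannot show a small change.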
